A study of Homo sapiens with 6 samples.

Results

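Levels of 3 genes were examined in LX-2 cells: PTHLH, which encodes the hormone PTHrP, PTH1R, which encodes its receptor, and STC1, which encodes the hormone stanniocalcin 1. They were taken by name from the 21533 genes of the deposited tables, and all 3 were found. They had been picked with their difference between the groups in view, so that difference is given below as a description and was not tested. LX-2 is an immortalised line of human hepatic stellate cells, the cells that store vitamin A in the resting liver and make matrix after injury. Expression was measured by RNA sequencing in 3 samples transfected with PERK siRNA and 3 transfected with control siRNA. Both groups then received palmitic acid, a saturated fatty acid, and RNA was taken 24 h later. The study concerns PERK, a sensor of stress in the endoplasmic reticulum encoded by EIF2AK3, in stellate cells and liver cancer. Cells without palmitic acid were not analysed here, the model is 1 cell line, and no label says whether the samples of a group were separate cultures. For other genes, p-values therefore reflect the spread among these samples alone, and that spread may be technical.

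PTHrP resembles parathyroid hormone at its amino end and acts mostly on neighbouring cells through PTH1R, a G protein-coupled receptor that raises cyclic AMP and can also engage phospholipase C. It holds back the maturation of growth plate cartilage, and when a tumour secretes it in excess it raises blood calcium. Stanniocalcin was first known in fish as a hormone that lowers calcium uptake. Mammalian stanniocalcin 1 is a secreted glycoprotein that acts locally, is linked to calcium and phosphate handling and is known to be induced by hypoxia. STC2 encodes its closest relative.

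PTHLH (ENSG00000087494) lies on chromosome 12, from 27958084 to 27972705 on the minus strand of GRCh38, the assembly also called hg38, with 9 annotated transcripts that start at 9 positions. PTH1R (ENSG00000160801) lies on chromosome 3, from 46877746 to 46903799 on the plus strand, with 8 annotated transcripts and 7 start positions. An antisense gene, AC008011.2, shares 10.5% of the PTHLH exon bases, and the sources used here do not say whether counting used strand. PTH1R overlaps MYL3, but no exon bases are shared. All reads of both genes were placed uniquely.

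RefSeq promoter windows ran from 250 bases before to 50 after a gene start on GRCh38.p14. The source held windows for 2 of the 3 genes and none for STC1, which was therefore not searched. Those of PTHLH and PTH1R are shown because these genes encode a ligand and its receptor and differed in opposite directions. Capitals mark matches on either strand to 5 short motifs: TGACG, the core of the cyclic AMP element; TGANTCA, the AP-1 element; ACGTG, the core of the hypoxia element; TGATGCA, a C/EBP-ATF element; and CCGGAAG, an ETS element.
PTHLH, chr12:27969927-27970226, minus strand: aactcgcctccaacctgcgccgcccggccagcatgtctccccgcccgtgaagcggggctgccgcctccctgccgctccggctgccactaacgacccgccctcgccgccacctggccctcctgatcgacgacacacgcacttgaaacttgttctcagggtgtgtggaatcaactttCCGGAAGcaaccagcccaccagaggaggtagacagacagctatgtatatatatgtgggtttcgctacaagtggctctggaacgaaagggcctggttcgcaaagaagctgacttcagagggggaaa
PTH1R, chr3:46877471-46877770, plus strand: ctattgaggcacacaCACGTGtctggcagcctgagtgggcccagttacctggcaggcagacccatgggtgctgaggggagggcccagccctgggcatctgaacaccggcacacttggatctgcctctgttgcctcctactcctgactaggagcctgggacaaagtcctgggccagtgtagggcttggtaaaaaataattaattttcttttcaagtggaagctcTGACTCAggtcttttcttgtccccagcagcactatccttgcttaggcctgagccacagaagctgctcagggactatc
PTH1R, chr3:46881999-46882298, plus strand: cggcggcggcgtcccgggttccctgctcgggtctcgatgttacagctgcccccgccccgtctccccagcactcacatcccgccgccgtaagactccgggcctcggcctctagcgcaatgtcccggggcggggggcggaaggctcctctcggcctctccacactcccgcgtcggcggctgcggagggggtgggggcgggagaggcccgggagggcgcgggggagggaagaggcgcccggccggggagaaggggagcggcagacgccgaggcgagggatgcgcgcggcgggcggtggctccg

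The PTHLH window held 1 ETS match, beginning 75 bases before the start that the window is set on, and no other match. This window lies inside the span of the gene given above. PTHLH has 9 annotated start positions, and only this window was searched. Of all 35116 windows of that length in the table, 10.3% held the ETS motif. The first PTH1R window held an AP-1 match 27 bases before the start, a motif found in 7.71% of windows. It also held the hypoxia core on both strands of 1 palindrome, as 2 overlapping matches 235 and 234 bases before the start, and 21.4% of windows held that core. PTH1R has 7 annotated start positions, and only these 2 windows were searched. The second PTH1R window lies inside the span of that gene, takes in the end of MYL3 at 46882169 and held no match. It was the richest of the 3 in G and C, at 77.3%, against 55.0% in the first PTH1R window, 60.3% in the PTHLH window and a median of 58.7% over all windows. The cyclic AMP core was found in 24.6% of all windows and the C/EBP-ATF motif in 2.63%, and neither was found in the windows printed here.

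Depth was 17937141 to 19535253 exon reads per PERK siRNA sample and 18560051 to 19585872 per control siRNA sample, so that 3 reads, taken as the floor of detection, corresponded to 0.153 to 0.167 CPM (reads scaled to library size) over the 6 libraries. This floor covers counting error only. The siRNA target EIF2AK3 stood at 4.95 ± 0.57 CPM with PERK siRNA and at 13.3 ± 0.54 CPM with control siRNA (SD, n = 3 each). It fell by 1.42 on the log2 scale (SE 0.10; edgeR adjusted p = 3.0e-13). The antisense genes AC104134.1 and AC062029.1 share 15.1% of the EIF2AK3 exon bases, so the limit on strand given for PTHLH holds here too. The 12 stellate and mesenchymal marker genes, of which 8 passed the expression filter, summed to 6868 to 6938 CPM with PERK siRNA and 6297 to 6558 CPM with control siRNA, mainly from COL1A1 and VIM. Behind that sum the tested markers went both ways: 4 rose (ACTA2, with a log2 fold change of 1.95, COL1A2, THY1 and VIM), 3 fell (PDGFRA, -1.41; COL3A1, -0.89; PDGFRB) and COL1A1 did not pass (edgeR adjusted p = 0.58). These genes are named after their values were seen. LUM, DCN and DES had at most 3 reads in any sample. The hepatocyte markers ALB, APOA1, APOB, TTR, CYP3A4 and HNF4A had no read in any sample, and the list of 7 summed, through SERPINA1, to 3.43 to 4.37 CPM with PERK siRNA and 3.75 to 4.97 CPM with control siRNA. The 5 cholangiocyte and epithelial markers, mostly SOX9, summed to 86.2 to 97.7 CPM with PERK siRNA and 129.7 to 138.9 CPM with control siRNA, with no CDH1 read. The 6 Kupffer cell and leukocyte markers, mostly CD68, summed to 72.0 to 74.7 CPM with PERK siRNA and 77.1 to 79.6 CPM with control siRNA, with no CD163 or CD3E read. The part of such cells in the results below was not tested.

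PTHLH was far lower with PERK siRNA. It had 53, 73 and 53 reads in the PERK siRNA samples, against 730, 687 and 610 reads in the control siRNA samples. Normalised by TMM, which scales libraries to one another, these were 2.97, 3.74 and 2.76 CPM with PERK siRNA and 37.1, 36.8 and 31.6 CPM with control siRNA. All PERK siRNA samples lay below all control siRNA samples, and the highest of them was far under the lowest control. The means were 3.15 ± 0.51 CPM with PERK siRNA and 35.2 ± 3.13 CPM with control siRNA (SD, n = 3 each). PTHLH with PERK siRNA was thus at 8.97% of its mean with control siRNA, and its log2 fold change of -3.47 was number 19 from the lowest among the 12973 genes tested. Groups without overlap were common in these data: 71.8% of all tested genes had them. Of all tested genes 69.5% passed the test, 34.4% as higher and 35.0% as lower with PERK siRNA, and since PTHLH, PTH1R and STC1 were chosen from this contrast nothing is read from their separation. Within groups the coefficient of variation of PTHLH was 16.3% with PERK siRNA and 8.88% with control siRNA, where counting error alone gives 12.9% and 3.85%. In bulk RNA, fewer cells with a transcript and less of it per cell cannot be told apart.

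PTH1R differed the other way and was scarce in both groups. It had 33, 38 and 41 reads in the PERK siRNA samples, against 17, 9 and 8 reads in the control siRNA samples. In CPM this was 1.85, 1.94 and 2.13 with PERK siRNA and 0.865, 0.483 and 0.414 with control siRNA. The groups did not overlap, as in 71.8% of all tested genes, and control sample 1 stood highest among the controls. The means were 1.98 ± 0.14 CPM with PERK siRNA and 0.587 ± 0.24 CPM with control siRNA (SD, n = 3 each), a ratio of 3.37. Its log2 fold change of 1.73 was number 102 from the highest and came to 2.12 without control sample 1. Its counts passed the expression filter through the PERK siRNA samples, where they are higher. The spread of PTH1R was 7.30% with PERK siRNA and 41.3% with control siRNA, where counting error alone gives 16.4% and 29.7%.

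STC1 (ENSG00000159167) lies on chromosome 8, from 23841915 to 23854807 on the minus strand, has 2 annotated transcripts and overlaps no annotated gene. In TPM, which divides reads by exon length, it was the most abundant of the 3 genes, with 54.6 ± 2.64 TPM with PERK siRNA and 145.3 ± 7.03 TPM with control siRNA (SD, n = 3 each). It had 1141, 1216 and 1320 reads in the PERK siRNA samples, against 3234, 3344 and 3333 reads in the control siRNA samples. In CPM this was 64.0, 62.2 and 68.7 with PERK siRNA and 164.5, 179.3 and 172.6 with control siRNA. The groups did not overlap, as in 71.8% of all tested genes, and samples of a group lay close together. The means were 65.0 ± 3.34 CPM with PERK siRNA and 172.1 ± 7.43 CPM with control siRNA (SD, n = 3 each), which put STC1 with PERK siRNA at 37.7% of its mean with control siRNA. Its log2 fold change of -1.41 was number 227 from the lowest, and its coefficient of variation was 5.14% with PERK siRNA and 4.32% with control siRNA, where counting error alone gives 2.86% and 1.74%. Over all samples, only 2 STC1 reads were not placed uniquely.

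**Figure D1:**
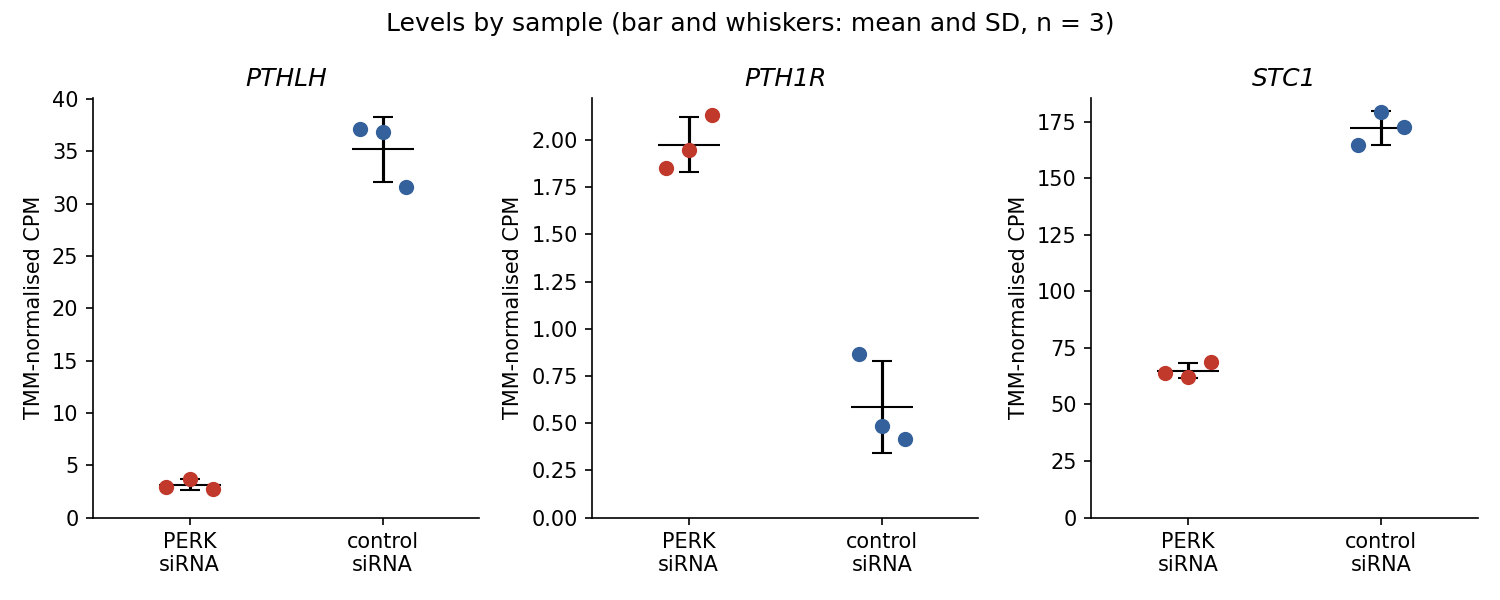
TMM-normalised CPM of PTHLH, PTH1R and STC1 in each of 3 PERK siRNA samples (red, left) and 3 control siRNA samples (blue, right), with the mean (bar) and SD (whiskers) and a linear axis of its own per gene. PTHLH averaged 3.15 and 35.2 CPM, PTH1R 1.98 and 0.587 CPM, and STC1 65.0 and 172.1 CPM with PERK siRNA and control siRNA. The groups did not overlap, which held for 71.8% of all tested genes.

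PTHLH and PTH1R were also compared with each other per length, in TPM. PTHLH averaged 3.22 ± 0.55 TPM with PERK siRNA and 36.1 ± 3.42 TPM with control siRNA, and PTH1R 2.55 ± 0.19 TPM with PERK siRNA and 0.762 ± 0.31 TPM with control siRNA (SD, n = 3 each). Ligand and receptor transcripts were thus at similar TPM with PERK siRNA. The ratio of PTHLH to PTH1R in TPM was 1.27, 1.52 and 1.02 in the PERK siRNA samples, against 33.9, 60.3 and 60.2 in the control siRNA samples. Control sample 1, which has the most PTH1R reads of the controls, gave the lowest control ratio. The control ratios rest on 8 to 17 PTH1R reads per sample. As both genes were chosen for their difference, the change in this ratio was not tested. Among the 16842 genes with a read, ordered by mean TPM from the highest, PTHLH stood at place 11104 with PERK siRNA and 5185 with control siRNA, and PTH1R at 11392 with PERK siRNA and 12577 with control siRNA. STC1 stood at place 3719 with PERK siRNA and 1429 with control siRNA.

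STC2 encodes the other stanniocalcin and was also lower, by less. STC2 had 2342, 2358 and 2323 reads in the PERK siRNA samples, against 3508, 3705 and 3263 reads in the control siRNA samples. It averaged 124.3 ± 6.07 CPM with PERK siRNA and 182.0 ± 15.2 CPM with control siRNA (SD, n = 3 each), and it fell by 0.55 on the log2 scale (SE 0.07, edgeR adjusted p = 0.0013). In TPM, the ratio of STC1 to STC2 was 0.555, 0.588 and 0.648 in the PERK siRNA samples, against 1.05, 1.03 and 1.16 in the control siRNA samples. STC1 thus stood a little above STC2 in every control siRNA sample and below it in every PERK siRNA sample. As STC1 was chosen for its difference, this change in their order was not tested.

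**Figure D2:**
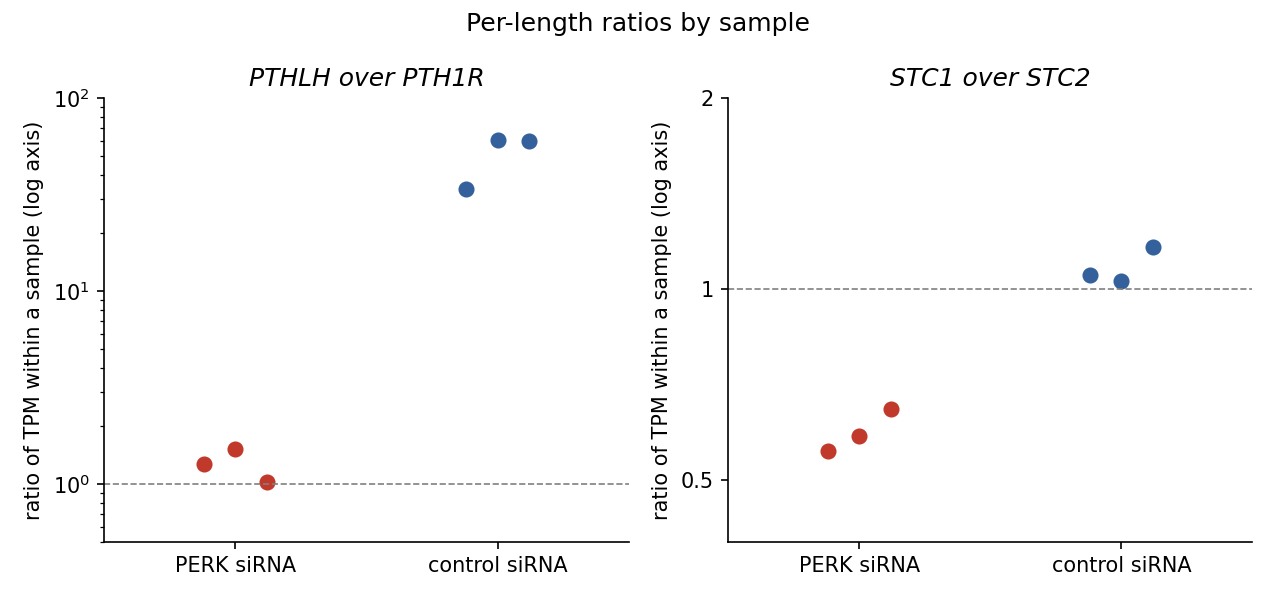
Ratios of TPM within each sample, PTHLH over PTH1R (left panel) and STC1 over STC2 (right panel), on log axes, for 3 PERK siRNA samples (red, left) and 3 control siRNA samples (blue, right), with a dashed line at equal levels. The PTHLH to PTH1R ratio was 1.02 to 1.52 with PERK siRNA and 33.9 to 60.3 with control siRNA. The STC1 to STC2 ratio was 0.555 to 0.648 with PERK siRNA and 1.03 to 1.16 with control siRNA. Neither ratio was tested, as PTHLH, PTH1R and STC1 were chosen for their difference.

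The genes around these hormones were followed in 8 lists of known function, in which the 3 genes themselves were not counted. The lists overlap: CASR, CREM, RUNX2 and VDR each belong to 2 of them. Genes were tested with edgeR's quasi-likelihood test over all genes, at an adjusted p under 0.05. The first list held 17 other hormones and receptors of calcium and phosphate balance. Of these, 8 had no read in any sample: PTH, PTH2, CALCA, CALCB, CALCR, RAMP3, CYP24A1 and KL. PTH2R, the second receptor of the family, had 1 read, in control sample 1. PTHLH and PTH1R were therefore the transcripts of the PTH ligand and receptor family seen above the floor. In this list 5 genes were tested: RAMP2 rose, STC2, CALCRL and VDR fell, and CYP27B1 did not pass, so that 80.0% were called, against 69.5% of all tested genes. Their median log2 fold change was -0.55, where that of all tested genes was 0.0038. VDR, the vitamin D receptor, fell to 27.5 ± 0.92 CPM with PERK siRNA, against 78.1 ± 0.25 CPM with control siRNA (SD, n = 3 each; log2 fold change -1.50, SE 0.04, adjusted p = 6.9e-23). CALCRL, the receptor for calcitonin gene-related peptide and adrenomedullin, was scarce at 0.746 ± 0.20 CPM with PERK siRNA and 1.43 ± 0.40 CPM with control siRNA. It fell (-0.93, adjusted p = 0.0077), a call lost without PERK siRNA sample 2 (adjusted p = 0.064). RAMP2, an accessory protein of that receptor that is also known to bind PTH1R, rose to 1.51 ± 0.12 CPM with PERK siRNA, against 0.749 ± 0.14 CPM with control siRNA (1.00, adjusted p = 0.0020). CYP27B1, which activates vitamin D, stood at 2.57 ± 0.65 CPM with PERK siRNA and 2.32 ± 0.50 CPM with control siRNA and did not pass the test (0.14, adjusted p = 0.56).

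Enzymes that cut and trim peptide hormones gave 3 rises and 2 falls among 7 tested genes (71.4% called, against 69.5% of all tested genes), with a median of -0.016. FURIN, a convertase that cleaves the PTHrP precursor among others, fell to 97.4 ± 3.01 CPM with PERK siRNA, against 262.1 ± 6.78 CPM with control siRNA (SD, n = 3 each; -1.43, SE 0.03, adjusted p = 6.5e-26). The other convertase that was called, PCSK7, rose (0.29), with 62.4% of its reads placed uniquely. CPE (0.53), a carboxypeptidase of hormone granules, and PAM (0.30), which amidates peptides, rose. CPD, another carboxypeptidase, fell by 0.06 on the log2 scale with an adjusted p of 0.046, a call lost under 6 of the alternatives (largest adjusted p = 0.24). PCSK1 and PCSK2, the convertases of endocrine cells, had at most 1 read in any sample.

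Among 35 tested genes of the signalling route below PTH1R, 12 rose and 16 fell, with a median of 0.046. That is 80.0% called, against 69.5% of all tested genes. GNAS, which encodes the G protein subunit that activates adenylyl cyclase, rose to 1477 ± 5.94 CPM with PERK siRNA, against 1147 ± 3.87 CPM with control siRNA (SD, n = 3 each; 0.37, adjusted p = 5.9e-15). ADCY9, an adenylyl cyclase gene (0.64), PLCB3, a phospholipase C gene (0.51), and PDE4A, a phosphodiesterase gene (0.52), also rose. PDE4B, which encodes another enzyme that degrades cyclic AMP, fell to 1.45 ± 0.23 CPM with PERK siRNA, against 6.48 ± 0.72 CPM with control siRNA (-2.16, adjusted p = 1.5e-12). GRK5 (-1.09) and GRK6 (-0.46), kinases that switch off G protein-coupled receptors, fell, as did ATF1 (-1.09), a transcription factor that protein kinase A activates.

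Of 12 genes known to be induced by cyclic AMP, 2 rose, 4 fell and 6 did not pass, among them FOS and NR4A3, named after their values were seen. That is 50% called, against 69.5% of all tested genes, and the median was -0.17. SIK1, a kinase gene, fell to 8.13 ± 0.20 CPM with PERK siRNA, against 15.8 ± 0.98 CPM with control siRNA (SD, n = 3 each; -0.96, adjusted p = 3.4e-11). JUNB (-0.69), CREM (-0.38) and NR4A2 (-0.44) encode transcription factors and fell. NR4A2 no longer passed with DESeq2 (0.068) or when control sample 2 was left out (0.053). NR4A1, of the same family as NR4A2, rose to 6.52 ± 0.57 CPM with PERK siRNA, against 3.61 ± 0.55 CPM with control siRNA (0.85, adjusted p = 2.2e-06). The clock gene PER1 rose (0.18, adjusted p = 0.031), with overlapping groups, and did not pass with DESeq2 or when PERK siRNA sample 1 or 3 or control sample 3 was left out (largest adjusted p = 0.27).

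Factors and signals known to act on PTHLH transcription gave 6 rises and 11 falls among 19 tested genes (89.5% called, against 69.5% of all tested genes), with a median of -0.14. SMAD3, which carries TGF-β signals, fell to 256.0 ± 2.00 CPM with PERK siRNA, against 438.8 ± 8.20 CPM with control siRNA (SD, n = 3 each; -0.78, adjusted p = 1.4e-21). TGFB1, which encodes TGF-β1 (-0.67), and EPAS1, which encodes HIF-2α (-1.05), fell, and so did VDR, given above. RELA, an NF-κB subunit gene (0.49), SP1 (0.53), EGFR, the receptor of epidermal growth factor (0.40), and TGFBR2, a TGF-β receptor (0.21), rose. These are changes in transcript, and activity of the factors was not measured.

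Genes known to respond to PTH1R in bone and cartilage gave 4 rises and 5 falls among 12 tested (75.0% called, against 69.5% of all tested genes), with a median of -0.22. DKK1, a secreted Wnt inhibitor, rose to 248.3 ± 7.51 CPM with PERK siRNA, against 78.0 ± 6.58 CPM with control siRNA (SD, n = 3 each; 1.67, adjusted p = 2.9e-12). CCND1, which encodes cyclin D1 (0.45), BMP4 (0.73) and FGF2 (0.35) rose, and 88.9% of the FGF2 reads were placed uniquely. RUNX2, the transcription factor of bone-forming cells, fell to 15.7 ± 1.58 CPM with PERK siRNA, against 29.9 ± 1.28 CPM with control siRNA (-0.93, adjusted p = 3.7e-13). The chemokine gene CCL2 (-1.57), SOX9, a cartilage transcription factor gene (-0.54), and TNFRSF11B, which encodes osteoprotegerin (-1.12), fell. TNFSF11, which encodes RANKL, had no read in any sample. MMP13, a collagenase gene chosen after its values were seen, was under the filter, with 0 reads in every PERK siRNA sample, against 6, 7 and 9 reads in the control siRNA samples.

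Pumps, channels and carriers of calcium and phosphate gave 7 rises and 12 falls among 20 tested genes, with a median of -0.21. That is 95.0% called, against 69.5% of all tested genes. SLC20A1, a phosphate carrier, fell to 186.8 ± 4.65 CPM with PERK siRNA, against 461.2 ± 15.2 CPM with control siRNA (SD, n = 3 each; -1.30, adjusted p = 8.8e-26). XPR1, which exports phosphate (-0.52), ATP2A2, a calcium pump of the endoplasmic reticulum (-0.71), and STIM1, a calcium sensor of that compartment (-0.53), fell. SLC20A2, the carrier most like SLC20A1 (0.34), the calcium pump genes ATP2A3 (0.59) and ATP2B4 (0.27) and the channel gene ORAI2 (0.14) rose. ATP2A3 is of the same family as ATP2A2. So is the scarce ATP2A1, which also rose (0.68) and is named after its values were seen. SLC34A1 and SLC34A3, phosphate carriers of the kidney, had at most 2 reads in any sample, and SLC34A2 had none.

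In the list of hypoxia-inducible genes 17 were tested: 2 rose, 14 fell and 1 did not pass, at a median of -0.57. That is 94.1% called, against 69.5% of all tested genes, and the direction of this group was known from earlier results of these data. VEGFA, the vascular endothelial growth factor gene (-2.77), SLC2A3, a glucose transporter gene (-1.41, with 85.7% of reads placed uniquely), LDHA (-0.64) and BNIP3 (-0.72) fell. ADM, which encodes adrenomedullin, rose to 17.3 ± 0.96 CPM with PERK siRNA, against 9.90 ± 0.66 CPM with control siRNA (SD, n = 3 each; 0.81, adjusted p = 4.9e-10). The carbonic anhydrase gene CA12 also rose, at 1.40 ± 0.15 CPM with PERK siRNA and 0.696 ± 0.12 CPM with control siRNA (1.00, adjusted p = 0.0028). ANGPTL4 (-3.46), described below, had the fold change nearest to that of PTHLH in this list.

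**Figure D3:**
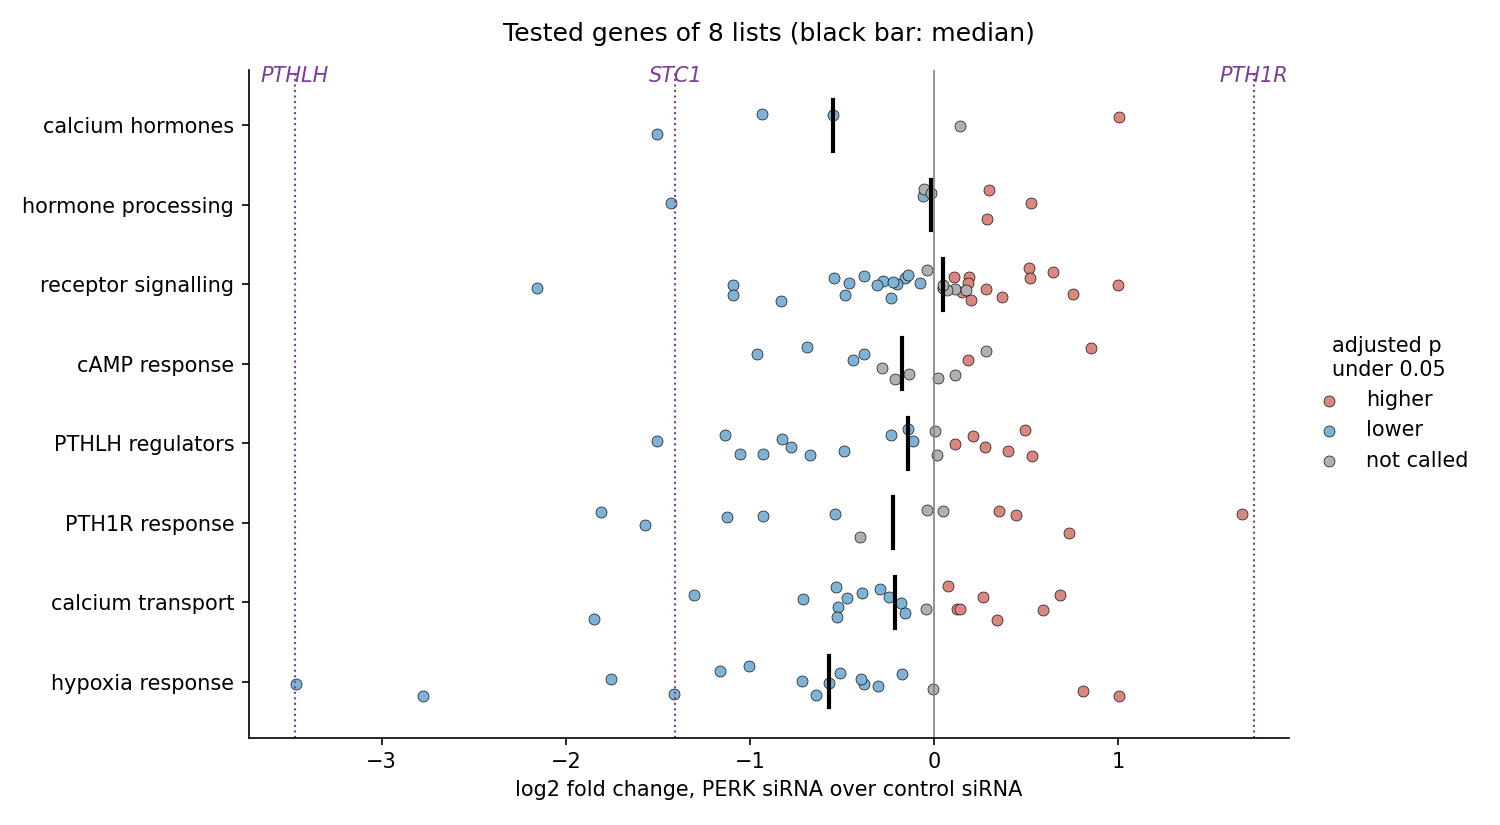
Log2 fold change of PERK siRNA over control siRNA for each tested gene of the 8 lists (red: higher, blue: lower, grey: not called at an adjusted p under 0.05 by edgeR), with the median of each list as a black bar and PTHLH, STC1 and PTH1R as dotted lines at -3.47, -1.41 and 1.73. Medians lay between -0.57 for hypoxia-inducible genes and 0.046 for genes of receptor signalling, and the height of points within a row carries no value.

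The genes whose pattern over the 6 samples was most like that of each gene were found by the root mean square difference of their log2 CPM, each centred on its own mean, among 11762 tested genes of sufficient level for PTHLH and STC1 and 11763 for PTH1R. For PTHLH these were PECAM1 (difference 0.18), PAK6 (0.28), TNFSF15 (0.31), CILK1 (0.33) and ANGPTL4 (0.35). PECAM1 encodes an adhesion protein best known from endothelium and platelets, and averaged 0.632 ± 0.11 CPM with PERK siRNA and 8.95 ± 0.05 CPM with control siRNA (SD, n = 3 each). The 5 endothelial markers examined summed to 3.03 to 3.63 CPM with PERK siRNA and 11.2 to 11.6 CPM with control siRNA, mostly from PECAM1 in the control siRNA samples. The endothelial markers VWF and KDR did not pass the test, CDH5 and STAB2 were under the filter, and the part of such cells in the PTHLH difference was not tested. ANGPTL4, an inhibitor of lipoprotein lipase, averaged 1.47 ± 0.38 CPM with PERK siRNA and 16.3 ± 2.87 CPM with control siRNA (SD, n = 3 each). The measure takes in both the difference between the groups and the spread within them.

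For PTH1R the most alike genes were FGFR3, a fibroblast growth factor receptor gene (0.19), MAP3K7CL (0.21), ABCA3, a lipid transporter gene (0.22), WASF1, an actin regulator gene (0.22), and PRR18 (0.23). PTH1R was itself under the level asked of these genes, so its pattern rests on fewer reads than theirs. Log2 CPM was taken with a prior count of 2, which shrinks the differences of scarce genes such as PTH1R. FGFR3 averaged 5.97 ± 0.57 CPM with PERK siRNA and 1.70 ± 0.36 CPM with control siRNA (SD, n = 3 each). For STC1 they were TDG, a DNA repair glycosylase gene (0.036), ARL6IP1 (0.038), SLC4A7, a bicarbonate transporter gene (0.039), EFR3A (0.044) and NCOA3, a nuclear receptor coactivator gene (0.046). The STC1 matches were the closest of the 3 sets. STC1 also had the most reads of the 3 genes and the least extreme rank by log2 fold change, and the part of these was not tested. TDG averaged 7.85 ± 0.24 CPM with PERK siRNA and 21.2 ± 0.83 CPM with control siRNA (SD, n = 3 each), and 74.1% of the ARL6IP1 reads were placed uniquely.

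**Figure D4:**
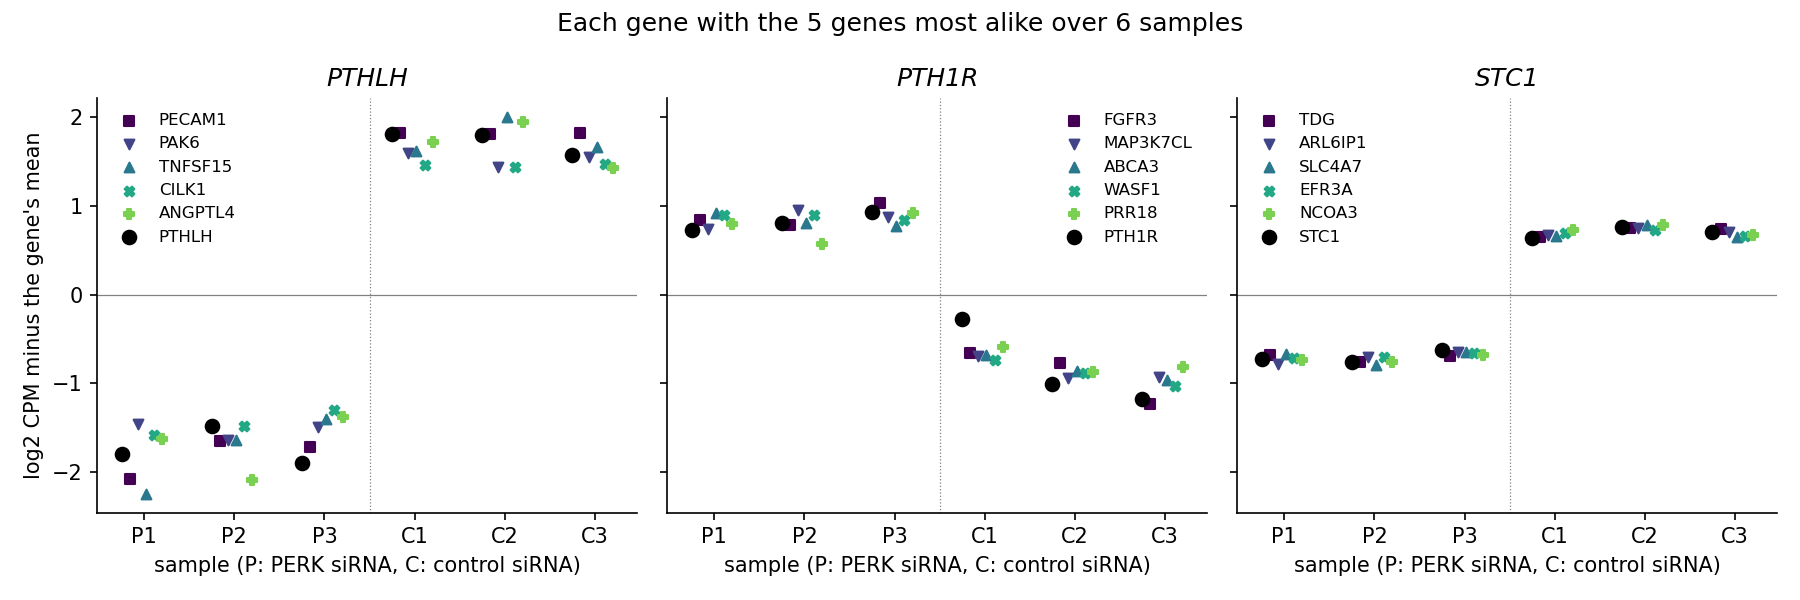
Log2 CPM minus the gene's own mean in 3 PERK siRNA samples (P1 to P3, left) and 3 control siRNA samples (C1 to C3, right) for PTHLH, PTH1R and STC1 (black circles) and the 5 genes most like each. The STC1 set differed by 0.036 to 0.046, the PTHLH set by 0.18 to 0.35 and the PTH1R set by 0.19 to 0.23, and PTH1R lay above its set in control sample 1.

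The neighbouring genes described here were taken from the 3 nearest on each side of PTHLH, PTH1R and STC1. They differed by less than the gene they lie beside, apart from the scarce MANSC4. That follows largely from the choice of PTHLH, PTH1R and STC1 by their difference, so nothing is read from it. Of all tested genes, 69.5% passed the test. Beside PTHLH, KLHL42 (-0.49), 155.0 kb away, MRPS35 (-0.12) and ERGIC2 (-0.09) fell, while CCDC91 (-0.04, adjusted p = 0.47) and FAR2 (-0.12, adjusted p = 0.072) did not pass. ERGIC2 did not pass with DESeq2 (0.072) or when PERK siRNA sample 2 (0.092) or control sample 2 (0.054) was left out. MANSC4, 186.8 kb from PTHLH, fell too, from few reads: at most 2 in a PERK siRNA sample and at most 14 in a control siRNA sample (adjusted p = 8.1e-06). Its counts passed the expression filter only through the control siRNA samples, where they are higher, and lay under the floor of 3 reads with PERK siRNA. Nothing is therefore read from this call. Beside PTH1R, NBEAL2 rose (0.78), 75.9 kb away, CCDC12 fell (-0.41) and SETD2 did not pass (-0.06, adjusted p = 0.064). MYL3, which overlaps PTH1R, had at most 3 reads in any sample. Beside STC1, SLC25A37 (0.09, adjusted p = 0.10) and NKX2-6 (0.10, adjusted p = 0.74) did not pass.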

How the data were processed

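RNA sequencing of LX-2 cells covered 3 samples with PERK siRNA and 3 with control siRNA, grouped by their titles. Per the labels' protocols, libraries were made with a directional kit. The genome was hg38, per the submitters' processing notes. Which aligner, counter and annotation release were used, and whether strand was counted, is not given in the sources used here. Per the file headers, the authors deposited a count of total and of unique exon reads for each gene, and TPM. Uniquely identified transcripts, another deposited column, were not used.

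Total exon reads were tested with edgeR 4.0.16 in R 4.3.3 (quasi-likelihood, TMM factors, default expression filter, robust dispersion), with Benjamini-Hochberg adjustment over 12973 genes. Log2 fold changes are PERK siRNA over control siRNA. TPM was used only to compare genes. The fit was checked on simulated data in which few genes changed. That check does not cover data in which most genes are called, as here. Alternatives were other scaling, filters, DESeq2 1.42.0, unique reads, the replicate block and leaving out each sample. Places came from GENCODE 29, in which 21290 of 21533 gene identifiers were found.

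The 3 genes and the 8 lists were chosen with earlier results of these data known. Named genes were those of the calcium list that were tested, up to 4 per direction and list with the smallest adjusted p, the neighbours and the most alike genes, which were sought above a mean log2 CPM of 1. PDE4C was not analysed here. A single neighbouring gene is not reported here.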

Additional observations from a re-analysis of the deposited data

How the results depend on the processing

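The direction of PTHLH, PTH1R and STC1 was the same under each alternative run. The log2 fold change of PTHLH ranged from -3.48 to -3.46 over scaling, filter, tool, block and unique reads, and from -3.62 to -3.38 when 1 sample was left out. For PTH1R these ranges were 1.72 to 1.75 and 1.53 to 2.12, and for STC1 the range over samples left out was -1.45 to -1.37. PTH1R rests on 8 to 17 reads per control siRNA sample, where its spread was 41.3%, against 29.7% from counting error alone. The number of genes called was 9014 in the main fit, 7884 with DESeq2, and 8543 to 8721 when 1 sample was left out. Counts for each list and for the neighbours stayed within 1.5 times the main count under each alternative run. Among genes induced by cyclic AMP that limit was reached. Of these, 6 were called in the main fit, 4 to 7 over scaling, filter, tool, block and unique reads, and 5 to 7 when 1 sample was left out. With the replicate block 9003 genes were called. Samples sharing a number did not deviate together (r of 0.011, -0.032 and -0.029 for numbers 1, 2 and 3). With so few samples and counting error in each gene, this cannot show whether they shared a culture or a day. Among single named genes, calls changed for CALCRL, CPD, ERGIC2, NR4A2 and PER1, given with their genes, and for FAR2 and SETD2. FAR2 passed on unique reads or without PERK siRNA sample 1. SETD2 passed without scaling factors, without the filter or without PERK siRNA sample 2.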
